A study of Mus musculus with 6 samples.

Results

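Runx1, Runx3, Cbfb, Zbtb7b, Gata3, Tox and Patz1 are transcription factors, or partners of one, that take part in the choice of a thymocyte between the CD4 and the CD8 lineage. The 7 genes were set by name, and every array probe whose platform annotation gave 1 of these symbols and no other was used. This gave 17 of the 45037 non-control probes, for 7 of the 18193 genes named on the array. Runx1 had 6 probes, Tox 3, Runx3, Zbtb7b and Patz1 2 each, and Gata3 and Cbfb 1 each.

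The 6 arrays measured bulk RNA of thymocytes at 3 stages, with 2 arrays a stage: double-positive (DP) cells with both coreceptors, CD4intCD8+ cells with intermediate surface CD4, and CD8 single-positive (CD8SP) cells. All groups shared one genotype: N15 TCR tg+/+, RAG-2-/- and H-2b. The cells came from 6 mice of 5 to 6 weeks, matched for age and sex, and were sorted in 2 independent experiments. The cells of every stage therefore carried a single transgenic receptor on a background that cannot assemble its own receptor genes, and the labels do not name the promoter of the transgene. The sort used CD4 and CD8 alone, so that other cells with the same surface pattern were not removed.

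In the thymus, a DP cell whose receptor binds MHC class II becomes a CD4 cell, and one whose receptor binds MHC class I becomes a CD8 cell. Zbtb7b (ThPOK), a BTB zinc finger protein, directs the CD4 fate. Runx3, a Runt domain protein that binds DNA with its partner Cbfb, silences Cd4 and Zbtb7b and directs the CD8 fate. Gata3 and Tox act before Zbtb7b on the CD4 side, Runx1 is the Runx protein of earlier thymocytes, and Patz1 (MAZR) is a BTB zinc finger protein that represses Cd8 in precursors and Zbtb7b in CD8 cells. The N15 receptor is restricted to MHC class I, and no group of CD4 single-positive cells was among the arrays used here.

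Because Runx and Gata proteins bind short DNA words, the promoters of the members were searched for them on both strands, as ACCACA (Runx) and GATAA (Gata). RefSeq windows of 250 bases before to 50 after a gene's start (GRCm38.p6) were given for 6 of the 7 genes, 10 windows in all, and for 32851 windows altogether. ACCACA stood in 16.8% of the 32851 windows and GATAA in 25.4%. Among the members, the first start sites of Runx1 and Runx3 each held ACCACA 2 times and the second start site of Zbtb7b held it 1 time. The windows of Cbfb, Gata3 and Patz1, the second windows of Runx1 and Runx3 and the first of Zbtb7b held no match. GATAA was found in 1 member window, the first of Patz1. The following 30-base stretches are shown because they hold every ACCACA match of the members, and capitals mark the match or, for both Runx genes, the run from the first match to the end of the second.
Runx1, first start site, chr16:92826025-92826054, minus strand: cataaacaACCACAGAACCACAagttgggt
Runx3, first start site, chr4:135120503-135120532, plus strand: gtccctcaACCACAGAACCACAaggccagg
Zbtb7b, second start site, chr3:89387743-89387772, minus strand: ctggcgaggaacTGTGGTatgtgagtgggt

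The first match began 28 bases after the start of Runx1 and 134 bases before that of Runx3, and the longest run shared by these windows was 18 bases. In Zbtb7b the word was on the opposite strand, so that the printed strand reads TGTGGT, beginning 89 bases before the start. A pair of ACCACA words that begin 8 bases apart on one strand, the spacing seen in both Runx genes, occurred in 7 of the 32851 windows (0.0213%), those of Runx1, Runx2, Runx3, Gm12236, Gm15462, Gm16225 and Olfr24. A match describes the letters of a window and does not show binding.

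Of the 17 probes, 7 were lower in CD8SP than in DP cells, 0 were higher, 8 were not called, and 2 were too dim for the fit. The 7 belonged to Gata3 (1 of 1 probe), Tox (3 of 3), Patz1 (2 of 2) and Runx1 (1 of 6). For comparison, 11.2% of the 27022 fitted probes were called between CD8SP and DP cells, 6.1% as higher and 5.07% as lower. With a block on the replicate number, 7 member probes were lower and 1, of Runx3, was higher. In that fit 2392 of the 27022 probes were lower and 2685 higher. A probe was called at a Benjamini-Hochberg adjusted p under 0.05 over all 27022 probes in one limma fit of all 6 arrays. Log2 changes are on the scale log2(intensity + 5.84), which understates changes of dim probes, and are followed by their standard error; fold differences are on the same scale. The intensities are linear values as deposited, and levels are compared only within a probe. Counted by overlap alone, 10 of the 15 fitted member probes had both CD8SP arrays below both DP arrays and 1 had both above, as did 28.3% and 27.4% of all fitted probes. For CD4intCD8+ against DP these were 10 below and 2 above, beside 26.4% and 26.3% of all. Without overlap at either step, 4 member probes were lower at each later stage and 0 higher, beside 5.2% and 5.13% of all. Probes of a gene share its transcripts and are not separate evidence. In bulk RNA, fewer cells of a type and less RNA per cell cannot be told apart.

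**Figure D1:**
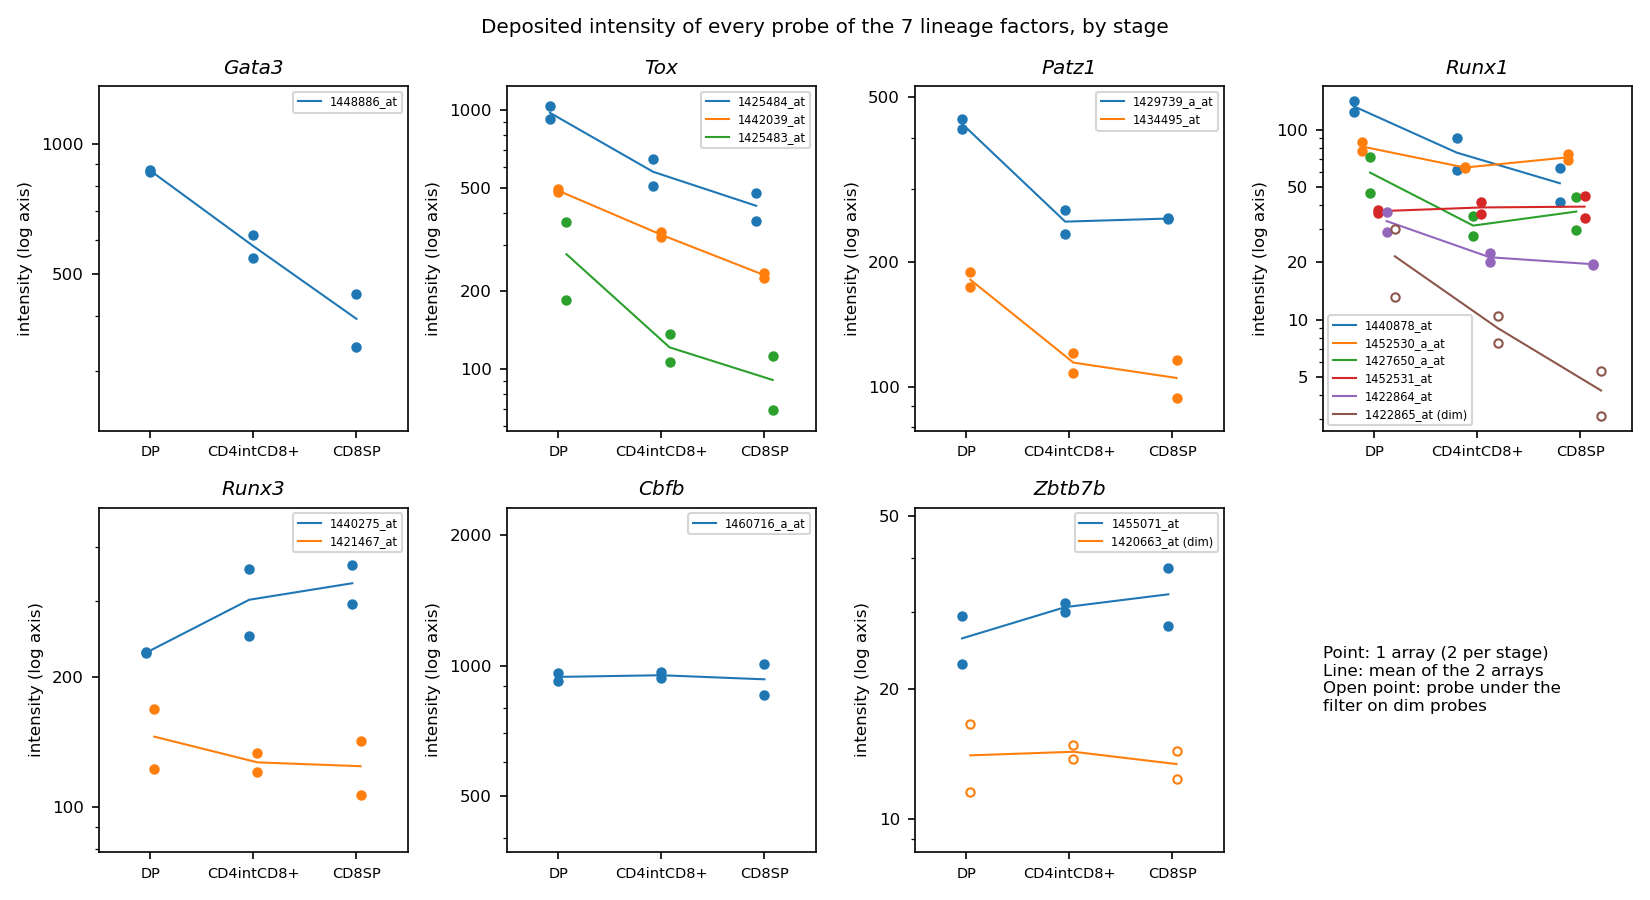
Deposited linear intensity of each member probe on the 6 arrays, by stage in developmental order, with points for the arrays and a line for the stage mean; every vertical axis has its own range. Gata3 and all Tox probes have lower stage means at each later stage, with Gata3 at 868, 581 and 395, while Cbfb stays between 854 and 1006 on all arrays.

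Gata3, a zinc finger factor needed for CD4 cells and upstream of Zbtb7b, was lower in CD8SP than in DP cells, with CD4intCD8+ cells in between. Its intensity (probe 1448886_at) was 864 and 872 at the DP stage, then 545 and 618 at CD4intCD8+ and finally 339.7 and 450.3 at CD8SP. No array of one stage overlapped with those of another. CD8SP cells were 2.20-fold below DP cells, with a log2 change of -1.14 ± 0.15 (limma adjusted p = 0.0017). This call held in every alternative setting tried.

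The Gata3 changes of the single steps were close to each other in size, and neither passed the test in the fit of all 6 arrays without a block. CD4intCD8+ cells averaged 581 ± 52.0, against 868 ± 5.86 in DP cells (SD, n = 2 each), a log2 change of -0.58 ± 0.15 with an adjusted p of 0.0564 in the limma fit. CD8SP cells averaged 395 ± 78.2, against 581 ± 52.0 in CD4intCD8+ cells (SD, n = 2 each), a log2 change of -0.56 ± 0.15 with an adjusted p of 0.316 in the limma fit. When limma blocked on the replicate number, it called both steps, at adjusted p values of 0.00766 and 0.0467. The first step was also called by limma with only the arrays compared (adjusted p = 0.0281), with 1 probe per gene (0.0387) and without CD8SP replicate 1 (0.0310) or CD8SP replicate 2 (0.0329). The difference between the steps was 0.02 ± 0.26 on the log2 scale, with a 95% interval of -0.56 to 0.59 (limma adjusted p = 0.988).

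Tox, an HMG box protein needed for the development of CD4 cells, was lower in CD8SP than in DP cells by all 3 probes. The brightest probe, 1425484_at, read 1031 and 919 at the DP stage, then 645 and 509 at CD4intCD8+ and finally 479 and 373 at CD8SP. Probe 1442039_at read 480.3 and 495 at the DP stage, then 322 and 337 at CD4intCD8+ and finally 225 and 235 at CD8SP. Probe 1425483_at read 370.2 and 184 at the DP stage, then 136 and 106 at CD4intCD8+ and finally 112 and 69.0 at CD8SP. The stages did not overlap in the first and the second of these probes, and in the last the CD4intCD8+ and CD8SP arrays overlapped while all lay below DP.

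Between CD8SP and DP cells the Tox log2 changes were -1.19 ± 0.16, -1.07 ± 0.12 and -1.51 ± 0.32 in that order of probes, with limma adjusted p values of 0.0020, 0.00096 and 0.0175. These were differences of 2.28-fold, 2.09-fold and 2.84-fold. The call of 1425483_at was lost in limma without DP replicate 1 (adjusted p = 0.110), without CD8SP replicate 2 (0.106) and without the intensity trend (0.0626). Its DP arrays differed from each other more than those of the other Tox probes.

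Between CD4intCD8+ and DP cells, 3 member probes were called lower and 0 higher by limma, 2 of Tox and 1 of Patz1, beside 5.74% of the fitted probes called in this comparison, 3.25% as higher and 2.49% as lower. With the replicate block, 7 member probes were lower and 0 higher, beside 1682 lower and 1968 higher of the 27022 fitted probes. The Tox changes were -0.76 ± 0.16 for 1425484_at (limma adjusted p = 0.0295) and -0.56 ± 0.12 for 1442039_at (limma adjusted p = 0.0343). For 1425483_at the change was -1.08 ± 0.32, with a limma adjusted p of 0.0884, or 0.00264 with the replicate block. The calls of this step depended on single arrays: none of the 3 was kept without DP replicate 1, DP replicate 2 or CD4intCD8+ replicate 2, where the adjusted p values lay between 0.0524 and 0.180. Without CD4intCD8+ replicate 1, Patz1 (0.0502) and Tox 1442039_at (0.106) were not called.

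Patz1 was lower in CD4intCD8+ than in DP cells by 1 of its 2 probes, and its mean in CD8SP cells was close to that in CD4intCD8+ cells. Probe 1429739_a_at read 444 and 419.7 at the DP stage, then 234 and 267 at CD4intCD8+ and finally 256 and 254 at CD8SP. Probe 1434495_at read 174 and 189 at the DP stage, then 108 and 121 at CD4intCD8+ and finally 94.0 and 116 at CD8SP. In both probes all arrays of the later stages lay below both DP arrays, and the later stages overlapped with each other.

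For 1429739_a_at the log2 change of CD4intCD8+ against DP was -0.77 ± 0.13 (limma adjusted p = 0.0150). Against CD4intCD8+ cells, CD8SP cells differed by 0.03 ± 0.13, with a 95% interval of -0.27 to 0.33 (limma adjusted p = 0.980). The difference between the steps was 0.80 ± 0.23, which missed the threshold after adjustment (limma adjusted p = 0.426, unadjusted p = 0.0067). For 1434495_at the first step was -0.64 ± 0.17 with a limma adjusted p of 0.0595, or 0.0141 with the replicate block.

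Between CD8SP and DP cells the Patz1 probes were 1.68-fold and 1.70-fold lower (limma adjusted p = 0.0076 and 0.0193). Without DP replicate 1 neither call was kept (0.0602 and 0.0786), and 1434495_at was also lost without DP replicate 2 (0.117) or CD8SP replicate 1 (0.103).

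The 6 probes of Runx1, which represses Cd4 in precursors, did not move alike. The brightest, 1440878_at, read 124 and 141 at the DP stage, then 61.2 and 90.0 at CD4intCD8+ and finally 41.6 and 62.7 at CD8SP. Both later stages lay below DP and overlapped with each other. CD8SP cells were 2.42-fold below DP cells, a log2 change of -1.28 ± 0.24 (limma adjusted p = 0.0093), and the call was lost without DP replicate 2 (0.0766). For CD4intCD8+ against DP the change was -0.79 ± 0.24, with a limma adjusted p of 0.0910, or 0.0121 with the replicate block.

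None of the other Runx1 probes was called between any stages. Probe 1452530_a_at averaged 71.4 ± 3.70 in CD8SP and 81.5 ± 6.59 in DP cells (SD, n = 2 each), a log2 change of -0.17 ± 0.16 (limma adjusted p = 0.563). Probe 1452531_at averaged 39.3 ± 7.37 in CD8SP and 37.2 ± 1.10 in DP cells (SD, n = 2 each), and the 95% interval of its log2 change was -0.41 to 0.53. This interval does not reach the change of 1440878_at, and the difference between the probes was not tested.

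Probe 1427650_a_at of Runx1 averaged 37.0 ± 10.5 in CD8SP and 59.3 ± 18.1 in DP cells (SD, n = 2 each), and 1422864_at averaged 19.6 ± 0.14 in CD8SP and 33.0 ± 5.66 in DP cells (SD, n = 2 each). Both had log2 changes of -0.60, with limma adjusted p values of 0.192 and 0.148. Probe 1422865_at lay under the filter, with 29.9 and 13.2 at the DP stage, then 7.54 and 10.5 at CD4intCD8+ and finally 5.36 and 3.11 at CD8SP. In the limma fit without the filter, where 5.82% of probes were called between CD8SP and DP cells, 2.81% between CD4intCD8+ and DP cells and 0.04% between CD8SP and CD4intCD8+ cells, its log2 change was -1.38 ± 0.40 (adjusted p = 0.0828). Which Runx1 transcripts each probe detects was not analysed here.

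Runx3, the Runx protein of CD8 cells, had higher values in the later stages by 1 of its 2 probes, short of the threshold in the fit without a block. Probe 1440275_at read 228 and 227 at the DP stage, then 354 and 248 at CD4intCD8+ and finally 363 and 295 at CD8SP. Within each replicate number the order from low to high was DP, CD4intCD8+ and CD8SP. The log2 change of CD8SP against DP was 0.51 ± 0.19, with a 95% interval of 0.10 to 0.93 (limma adjusted p = 0.114), and with the replicate block the adjusted p was 0.0254. That of CD4intCD8+ against DP was 0.38 ± 0.19 (limma adjusted p = 0.280).

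The other Runx3 probe, 1421467_at, read 122 and 169 at the DP stage, then 121 and 133 at CD4intCD8+ and finally 142 and 107 at CD8SP, and its stages overlapped. Its log2 change between CD8SP and DP was -0.21 ± 0.20, with a 95% interval of -0.67 to 0.25 (limma adjusted p = 0.570). Without DP replicate 2 this change was 0.01, so that its sign turned with 1 array.

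Cbfb, which strengthens the DNA binding of all Runx proteins, showed no called change. Probe 1460716_a_at read 921 and 963 at the DP stage, then 966 and 935 at CD4intCD8+ and finally 1006 and 854 at CD8SP. CD8SP and DP cells differed by -0.02 ± 0.11 on the log2 scale (limma adjusted p = 0.926). The 95% interval, -0.27 to 0.23, was the narrowest of the fitted member probes in this comparison.

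Zbtb7b was dim at every stage. Probe 1455071_at read 29.5 and 22.8 at the DP stage, then 30.1 and 31.6 at CD4intCD8+ and finally 38.1 and 28.0 at CD8SP, beside array medians between 24.9 and 25.7. Its log2 change between CD8SP and DP was 0.28 ± 0.24, with a 95% interval of -0.25 to 0.81 (limma adjusted p = 0.515). Probe 1420663_at read 11.5 and 16.5 at the DP stage, then 13.8 and 14.9 at CD4intCD8+ and finally 14.4 and 12.4 at CD8SP, under the filter at an intensity of 17.1. Both CD4intCD8+ arrays of 1455071_at lay above both DP arrays, and neither probe was called in any comparison.

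Between CD8SP and CD4intCD8+ cells, limma called 0 of the 15 fitted member probes, beside 0.0703% of all fitted probes, 0.0555% as higher and 0.0148% as lower (2096 probes at an unadjusted p under 0.05). With the replicate block, 1 member probe, that of Gata3, was lower, beside 115 lower and 160 higher of the 27022 fitted probes. Without overlap, 4 member probes were lower and 1 was higher, beside 18.5% and 18% of all. Gata3 and the brighter pair of Tox probes had the largest non-overlapping falls here, with the Tox changes at -0.43 ± 0.16 for 1425484_at (limma adjusted p = 0.553) and -0.51 ± 0.12 for 1442039_at (limma adjusted p = 0.270). No member probe was called for a difference between the steps, where limma called 0 probes of all 27022 (2599 at an unadjusted p under 0.05). Over any stage, the F test of limma called the same number of member probes, 7, beside 8.19% of all fitted probes.

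**Figure D2:**
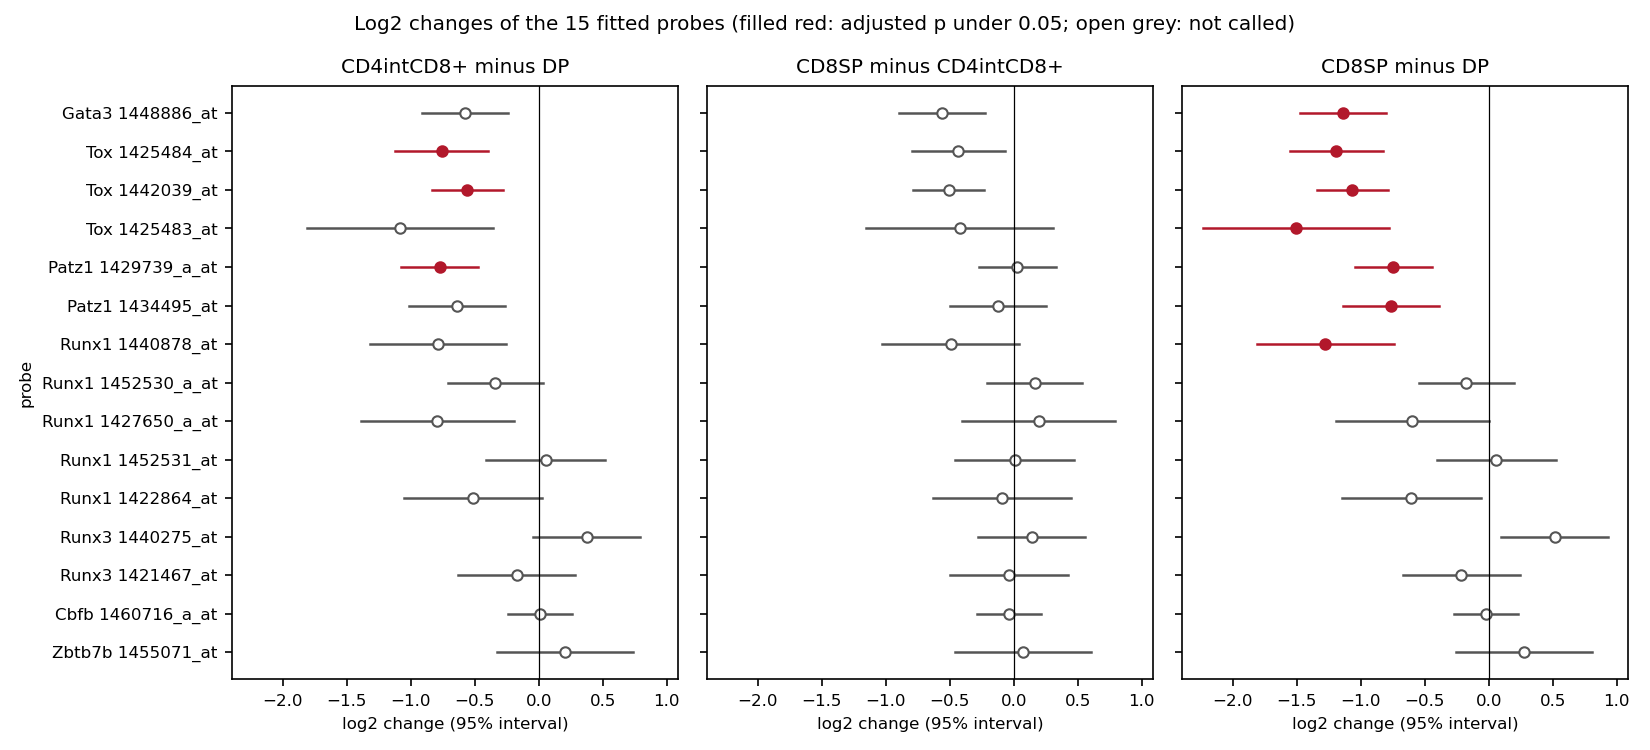
Log2 change with its 95% interval for each of the 15 fitted member probes, by comparison, with called probes marked. Between CD8SP and DP cells the 7 called probes lie between -1.51 and -0.75, and Runx3 1440275_at lies at 0.51.

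**Figure D3:**
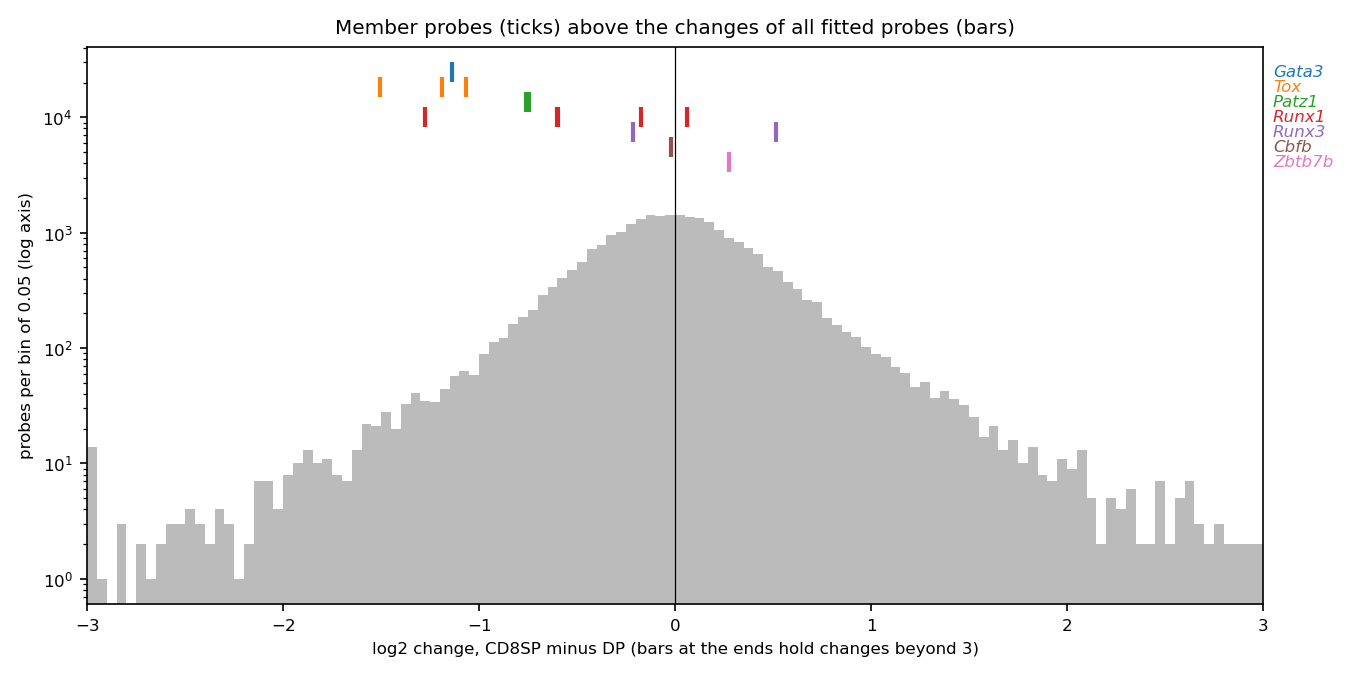
Distribution of the log2 change between CD8SP and DP cells over all 27022 fitted probes, with the fitted member probes as marks. Gata3, Tox, Patz1 and Runx1 1440878_at lie to the lower side of the distribution for CD8SP against DP, and Cbfb lies at -0.02, near the median of all probes at -0.01.

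The other genes of the pathway were taken from gene lists, each gene by its brightest probe. Over the brightest probes of all 13514 genes, 13.2% were called between CD8SP and DP cells (7.7% higher, 5.48% lower), 6.94% between CD4intCD8+ and DP cells (4.09% higher, 2.85% lower) and 0.0814% between CD8SP and CD4intCD8+ cells (0.0666% higher, 0.0148% lower). Of 9 tested Runx partners and relatives, 1 was higher and 2 were lower in CD8SP than in DP cells, with a median log2 change of -0.13, beside -0.01 over all probes (3 were lower with the replicate block). The Groucho corepressor Tle2, 1 of the 2 lower genes, averaged 12.5 in CD8SP and 45.9 in DP cells. All its CD4intCD8+ and CD8SP arrays lay under the filter intensity of 17.1. Tle2 was thus fitted only through its DP values, and its call is not read as a result. Its relative Tle4 averaged 220.4 in CD8SP and 128 in DP cells (limma adjusted p = 0.0129). Aes (Tle5), a short Groucho protein, averaged 367 in CD8SP and 615 in DP cells (limma adjusted p = 0.0396). The call of Tle4 was lost when all probes of the gene were averaged (log2 change 0.31) and without DP replicate 1 (limma adjusted p = 0.0921), CD8SP replicate 1 (0.0628) or CD8SP replicate 2 (0.0573). That of Tle5 was lost without DP replicate 1 (limma adjusted p = 0.0611), DP replicate 2 (0.226) or CD8SP replicate 2 (0.215), with the actin covariate (0.0652) and without the intensity trend (0.111). Without DP replicate 1 or DP replicate 2, 0 of these genes were lower.

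Of 12 BTB zinc finger relatives of Zbtb7b and Patz1, 0 were higher and 2 were lower in CD8SP than in DP cells (median -0.44, 5 lower with the replicate block). Bcl6, a repressor that directs the follicular helper T cell fate, averaged 105 in CD8SP and 603 in DP cells (limma adjusted p = 4.5e-05), and Zbtb2 averaged 253 in CD8SP and 398 in DP cells (limma adjusted p = 0.0278). The Zbtb2 call was lost in limma without DP replicate 1 (adjusted p = 0.182), DP replicate 2 (0.0546) or CD8SP replicate 2 (0.168), with the actin covariate (0.0652) and without the intensity trend (0.0840). Of 7 tested Gata relatives and cofactors, 1 was lower and 0 were higher (median 0.20). This was Ldb1, an adaptor of Gata complexes, at 164 in CD8SP and 404 in DP cells (limma adjusted p = 0.0086, but 0.0730 without DP replicate 1 and 0.0574 without CD8SP replicate 2). Of 2 tested Tox relatives, 0 were called (median 0.00 beside -0.01 over all probes).

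Among 21 other regulators of the lineage choice, 8 were lower and 1 was higher in CD8SP than in DP cells (median -0.42), or 11 and 2 with the replicate block. Myb, which supports Gata3 expression in thymocytes, averaged 512 in CD8SP and 1577 in DP cells (limma adjusted p = 0.00011), and Satb1, a chromatin organiser of DP cells, averaged 2013 in CD8SP and 3918 in DP cells (limma adjusted p = 0.00023). Socs1, an inhibitor of cytokine signalling, averaged 46.2 in CD8SP and 110.2 in DP cells (limma adjusted p = 0.0072, but 0.0723 without DP replicate 1). Il7r, the interleukin-7 receptor chain, averaged 235 in CD8SP and 26.5 in DP cells (limma adjusted p = 0.00067). Between CD4intCD8+ and DP cells, 7 of these regulators were lower and 0 higher, or 10 and 1 with the replicate block. In that step 2 were lower with the actin covariate, 2 also without DP replicate 1, DP replicate 2 or CD4intCD8+ replicate 2, and 0 without the intensity trend.

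Genes of the CD8 lineage and of cytotoxic cells were measured too. Of 11 tested CD8 lineage and cytotoxic genes, 4 were higher and 2 lower in CD8SP than in DP cells (median 0.74), or 5 and 2 with the replicate block. Not called without the block were Eomes (log2 change 0.74, limma adjusted p = 0.217), Prf1 (-0.57, 0.348) and Gzmb (0.36, 0.512). Ccl5 (2.33, 0.0698) and Xcl1 (0.11, 0.743) were not called either, and Tbx21 and Ifng lay under the filter. Itgae, the integrin CD103 and a Runx3 target, averaged 1120.4 in CD8SP and 51.5 in DP cells (limma adjusted p = 3.7e-05). It was the 1 gene of this list called between CD8SP and CD4intCD8+ cells, with a log2 change of 1.78 (limma adjusted p = 0.0215), and 4 were called with the replicate block. The Itgae call of this step was lost in limma without CD4intCD8+ replicate 2 (adjusted p = 0.108), CD8SP replicate 1 (0.100) or CD8SP replicate 2 (0.0544), without the intensity trend (0.189) and with its probes averaged (0.0580). Gzma, Nkg7 and Ctsw, genes of cytotoxic cells, were also higher in CD8SP than in DP cells, at 2508, 1178 and 1203 in CD8SP and 915, 143 and 155 in DP cells (limma adjusted p = 0.00021, 0.00017 and 0.00025). The lower genes were the sort marker Cd8a and its partner Cd8b1. Of this pair, 1 was called without DP replicate 1, and 0 without DP replicate 2, without CD8SP replicate 2 or without the intensity trend.

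Cd4, silenced by Runx proteins and also a sort marker, read 351 and 515 at the DP stage, then -33.0 and 11.8 at CD4intCD8+ and finally -65.8 and -68.6 at CD8SP. It passed the filter only through its DP values, and the sort itself set its surface level. No test or fold of Cd4 is therefore given in the text, and its point in the figure of the gene lists is not read as a result.

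**Figure D4:**
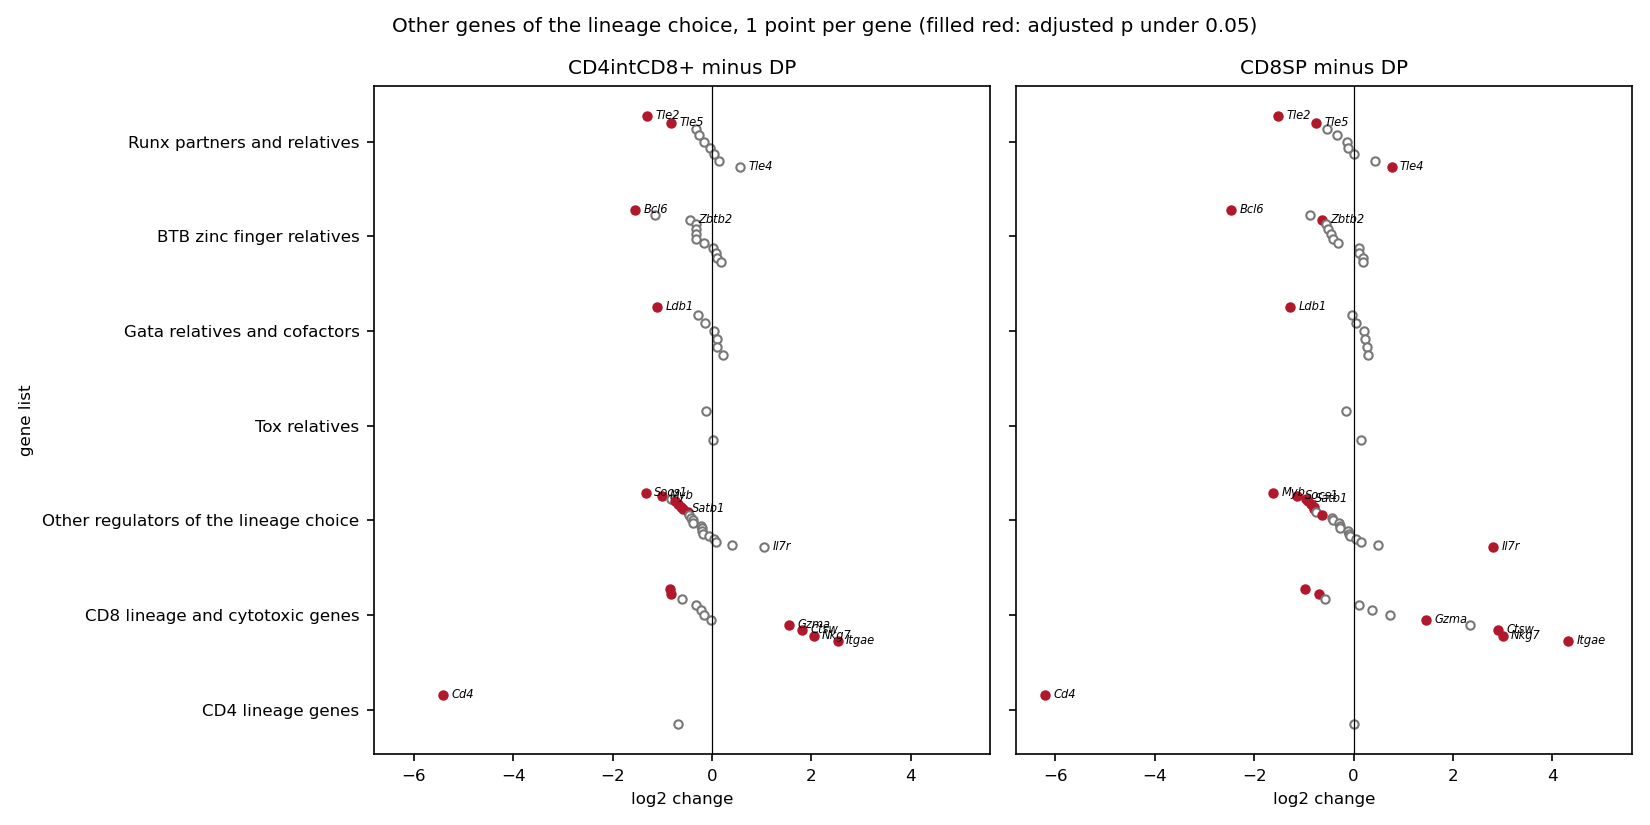
Log2 change of each fitted gene of the pathway lists, with 1 point per gene and called genes marked. The comparisons shown are CD4intCD8+ against DP and CD8SP against DP. Cd4 and Tle2 are drawn as called genes but passed the filter only through their DP values, so their points are not read as results. The other regulators have 8 lower and 1 higher in CD8SP against DP, and the CD8 lineage list has 4 higher and 2 lower.

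For each member whose brightest probe was called over the stages, the genes with the most similar profile were sought among 13513 genes, by the root mean square difference between log2 values centred on their own mean over the 6 arrays. These profiles share their arrays and describe likeness alone. Gata3 was nearest to Tubb2b (0.068), Mgat5 (0.072) and Rtkn (0.079), the first a tubulin and the second a glycan-branching enzyme, where Gata3 itself spanned 1.35. Tox was nearest to Cnn3 (0.065), Lzts1 (0.082) and Arap2 (0.099), where Tox spanned 1.45. Patz1 was nearest to Impdh1 (0.032), an enzyme of guanine nucleotide synthesis, the ubiquitin ligase Cbl (0.048) and Fam160b1 (0.052), where Patz1 spanned 0.91. Runx1 1440878_at was nearest to Ramp3, Anxa2 and Endou (0.115 each), where it spanned 1.63.

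Several measures moved with the stages, and their part in the member results was not tested. The markers of DP thymocytes include the sort markers Cd4 and Cd8a, the partner Cd8b1, and Rag2, which was dim after the DP stage. No count or sum is therefore given for them. Of the remaining markers, Rag1 read 1046 and 1054 in DP and 57.8 and 97.9 in CD8SP cells. Dntt read 2216 and 2657 in DP and 661 and 1026 in CD8SP cells. Of 4 markers of mature single-positive thymocytes, 4 were higher in CD8SP than in DP cells (2564 to 2574 in CD8SP, 468 to 886 in DP). Such ranges give the lower and the higher array of a stage, each summed over the list with 1 probe per gene. Bright genes weigh most in these sums, here Klf2, at 676 and 351 in DP and 1717 and 1755 in CD8SP cells. Of 6 T cell markers, 3 were lower (10591 to 11654 in CD8SP, 14742 to 15641 in DP). Of 6 double-negative markers 2 were higher and 1 lower (839 to 892 in CD8SP, 460.0 to 462 in DP). Among these, Kit read 11.1 and 6.19 in DP and 32.4 and 36.6 in CD8SP cells. Both its DP arrays lay under the filter intensity. Kit thus passed the filter only through its later arrays, and any call of Kit in this count is not read as a result. Of 3 gamma delta T cell markers, 1 was higher (725 to 820.5 in CD8SP, 319 to 446 in DP). Most of that sum came from Cd163l1, at 374 and 241 in DP and 631 and 699 in CD8SP cells. Of 3 fitted NKT and regulatory T cell markers (5 on the array) 0 were called (109.8 to 144 in CD8SP, 144 to 164 in DP). Of 3 fitted B cell markers, 1 was higher (224 to 241 in CD8SP, 169 to 201 in DP), while NK, myeloid, dendritic, epithelial and erythroid lists had 0 called of 2, 4, 3, 2 and 3 fitted markers, and no marker was at or below 0 on all arrays.

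The ratio of 3′ to 5′ actin signal, a sign of RNA quality, was 1.98 and 2.14 at the DP stage, then 2.37 and 3.47 at CD4intCD8+ and finally 2.28 and 2.62 at CD8SP. Both DP ratios lay below those of all later arrays, and within each stage replicate 2 had the higher ratio. The ratio can therefore not be fully told apart from stage or replicate number. With this ratio as a covariate the CD4intCD8+ against DP change was -0.39 for Tox 1425484_at (limma adjusted p = 0.430), -0.63 for Tox 1442039_at (0.175) and -0.89 for Patz1 1429739_a_at (0.0685), so that none of the 3 was called. With it Runx1 1440878_at was called in that step (-1.33, limma adjusted p = 0.0481), and Runx3 1440275_at was called between CD8SP and DP cells (0.74, limma adjusted p = 0.0134).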

How the data were processed

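Biotin-labelled cRNA from 6 arrays was analysed from the deposited value table, which holds 1 linear intensity per probe and array (45101 probes, 64 of them controls). The software and scaling by which the authors made the deposited intensities were not given in the sources used here. Of the non-control values 3.6% were below 0 and array medians lay between 24.9 and 25.7. Some form of subtraction and a scaling of the arrays before deposit were inferred from these values. Gene names came from the platform annotation (34945 probes with 1 symbol, 932 with several, 9160 with none), and 34741 matched a RefSeq table by Entrez number.

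Values below 0 were set to 0, log2(intensity + 5.84) was taken (the pseudocount is the 10th percentile of positive values), and probes with a mean below the 40th percentile (an intensity of 17.1) were left out, 18015 in all. The 27022 others were fitted with limma 3.58.1 in R 4.3.3 (lmFit, eBayes with an intensity trend), with stage as the only term, and p-values were adjusted by Benjamini-Hochberg over all of them. The code of the fit was run on simulated data with independent noise on every array, which does not give the error rate in these data. The dim member probes were read from the same fit without the filter. Beyond the 2 experiments the labels tie no array to separate animals, so p-values measure only how these arrays vary, and their number limits the precision.

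Same-numbered arrays deviated together from their stage means (correlations over 27022 probes of 0.22, 0.13 and 0.15), and the labels name independent experiments, so the numbers were taken to pair the arrays. The main fit has no term for this pairing. The blocked value is given where it changes a call of a member or a count of list genes between CD8SP and DP cells. The members and lists were chosen with earlier results of these data known. Every member probe is named, with up to 4 called genes per list by their CD8SP against DP change, and 3 nearest profiles per called member. Alternatives were other pseudocounts, filters, scaling, probe summaries, covariates and left-out arrays. Of 146 list genes 133 were matched, and the others were not used here. No coordinates of probes are given, since their build was not given.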

Additional observations from a re-analysis of the deposited data

How the results depend on the processing

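No called result changed direction in the alternatives run. The counts moved as follows, and the cause was not tested. Without the intensity trend, the calls were 140 probes for CD4intCD8+ against DP (0 members, 9 at an unadjusted p under 0.05), 0 for CD8SP against CD4intCD8+ (2073 at an unadjusted p under 0.05), 1747 for CD8SP against DP and 825 over any stage (1 member). With each gene's probes averaged they were 764, 2, 1548 (4 members) and 1143 (3 members), and with 1 probe per gene 4 members were called for CD8SP against DP, 4 over any stage, and 1 gene for the difference of steps; these fits hold fewer features. With the replicate block they were 3650 (7 members), 275 (1 member), 5077 and 4565, with 69 for the difference of steps. With the actin ratio they were 328 for CD4intCD8+ against DP (1 member) and 2 for the difference of steps. A pseudocount of 32 gave 31 for CD8SP against CD4intCD8+. Leaving out 1 array gave 115 to 1642 probes for CD4intCD8+ against DP (0 to 4 members), 9 to 82 for CD8SP against CD4intCD8+, 1280 to 3115 for CD8SP against DP (4 to 7 members), 566 to 2770 over any stage (2 to 7 members) and 0 to 22 for the difference of steps. A fit of only the arrays compared was not possible for the tests over all stages. Dim signal limits Zbtb7b and the lowest Runx1 probe.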
